A study of Mus musculus with 2 samples.

Results

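The 6 genes described here belong to cell division and to the supply of histones: Cdkn1a, Ccnd1, Rrm2, Bub1b, H1f5 and H4c8. They are 6 of the 1750 genes that have a row of exactly 1 gene symbol in the deposited table, and each has 1 such row. The members were chosen by name with their measured difference between the arrays already known, so their levels and directions are a description and carry no test. The authors kept only rows that differed by at least 1.5-fold between the arrays, so every member had to differ.

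RNA of mouse liver was hybridised to 2 arrays, 1 per group. All mice were C57BL/6J, a common inbred laboratory strain, aged 6 to 10 weeks, and all underwent jugular vein catheterization on day 1 and were infused with saline from day 2. From day 3 the saline group stayed on saline with food in the cage, whereas the other group was given parenteral nutrition (PN), which delivers all nutrients by vein, and had its food removed. Livers were taken on day 11, and the RNA of 3 mice of a group was pooled for its array. The infusion and the loss of food by mouth thus differed together between the pools, and their parts cannot be told apart. With 1 pool per group, differences cannot be set against a spread between replicates, and none was tested.

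Progress through the cell cycle is driven by cyclin-dependent kinases, which cyclins such as cyclin D1 (Ccnd1) switch on and inhibitors such as p21 (Cdkn1a) hold back. During S phase the cell needs deoxynucleotides, whose rate-limiting step is ribonucleotide reductase (Rrm2 encodes its small subunit), and new histones from clustered genes whose mRNAs end in a stem-loop in place of a poly(A) tail. In mitosis the spindle checkpoint, of which BubR1 (Bub1b) is a component, delays the separation of chromosomes until all are attached. Hepatocytes of the adult liver are mostly quiescent and re-enter the cycle after injury or loss of tissue.

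Of the 6 genes, 5 were lower and 1, Ccnd1, was higher in the PN pool. Of all 5082 deposited rows, 52.7% were lower, and of the 1779 rows with 1 symbol 49.6%. Cdkn1a, H1f5 and H4c8 differed by at least 2-fold, as did 27% of all rows and 14.8% of the rows with 1 symbol. These shares stand beside the counts only as background, because the same contrast was used to choose the members. The median fold of the 6 genes, whatever the direction, was 1.91, against 1.65 over rows with 1 symbol and 1.73 over all rows. Since the cutoff leaves no row near 0, the median difference of all rows, -0.60, and of the rows with 1 symbol, 0.59, only shows which side held more rows. Bub1b lay nearest to the cutoff, at an absolute log2 difference of 0.77 against 0.58 for 1.5-fold, and Rrm2 next at 0.78. Genes just outside the cutoff have no value here.

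The regulatory sequence at the starts of these genes is shown because several of the windows hold spellings of elements known from histone, cell cycle or p53-controlled promoters. The motifs were picked after the windows were seen. RefSeq windows of GRCm38.p6 matched 5 of the 6 genes, all but Ccnd1, and Cdkn1a has windows for 2 starts. Each line runs 5′ to 3′ from 130 bases before the annotated start to 20 bases after it, with matches to the searched motifs in capitals. The stretches lie at chr13:21780606-21780755, minus strand for H1f5, chr13:23530914-23531063, plus strand for H4c8, chr12:24708124-24708273, plus strand for Rrm2 and chr2:118598081-118598230, plus strand for Bub1b. For Cdkn1a they lie at chr17:29090849-29090998, plus strand for the upstream start and chr17:29093639-29093788, plus strand for the downstream start.
H1f5: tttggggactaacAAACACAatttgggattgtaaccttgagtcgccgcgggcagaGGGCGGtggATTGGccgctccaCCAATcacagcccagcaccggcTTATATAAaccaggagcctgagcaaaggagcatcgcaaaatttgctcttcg
H4c8: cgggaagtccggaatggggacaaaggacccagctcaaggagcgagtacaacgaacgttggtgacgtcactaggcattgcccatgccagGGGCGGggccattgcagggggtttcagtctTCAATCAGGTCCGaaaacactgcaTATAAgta
Rrm2: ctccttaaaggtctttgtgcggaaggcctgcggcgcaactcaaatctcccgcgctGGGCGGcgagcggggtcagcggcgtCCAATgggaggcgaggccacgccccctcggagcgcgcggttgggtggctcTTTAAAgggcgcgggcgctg
Bub1b: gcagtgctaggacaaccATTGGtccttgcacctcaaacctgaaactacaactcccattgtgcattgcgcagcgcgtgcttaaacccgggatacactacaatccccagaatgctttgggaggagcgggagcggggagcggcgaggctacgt
Cdkn1a, upstream start: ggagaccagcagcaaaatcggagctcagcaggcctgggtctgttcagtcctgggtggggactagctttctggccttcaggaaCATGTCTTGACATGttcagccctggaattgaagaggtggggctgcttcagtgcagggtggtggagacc
Cdkn1a, downstream start: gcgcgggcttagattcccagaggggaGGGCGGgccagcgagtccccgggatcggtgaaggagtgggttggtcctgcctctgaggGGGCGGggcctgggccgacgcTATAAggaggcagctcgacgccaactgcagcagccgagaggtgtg

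The 10 motifs were searched on both strands of the 300-base windows, which run from 250 bases before to 50 after a start. In H1f5 the CCAAT box (CCAAT) matched from -168, from -53 and, on the other strand, from -66, and the 2 matches to the TATA core (TATAA), on opposite strands, overlap between -31 and -24. H1f5 also holds the H1 box (AAACACA) from -117, an element known from H1 histone promoters. Of the 6 H1 windows 5 held AAACACA, against 7.18% of all 32851 windows, and all 6 held CCAAT, against 37.4%. H4c8 holds the core of an H4 promoter element, known to be bound by the factor HINFP, spelled here as TCAATC, any base and GGTCCG. This match ran from -12 to 1 and was followed by TATAA from 13. Only 3 of all 32851 windows held this exact spelling, 2 of them among the 12 windows of H4 genes.

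Rrm2 holds CCAAT from -50, the GC box (GGGCGG) from -75 and TTTAAA from 1. TTTAAA and TTTGAA are spellings of the cell cycle homology region, an element through which the DREAM complex is known to repress late cell cycle genes in resting cells. Bub1b holds CCAAT on the other strand from -113 and TTTGAA from 41, past the stretch shown. AAACACA also matched in Bub1b, from -165, and TTTGAA in H1f5, on the other strand from -230. TTTGAA occurred in 17.9% of all windows and TTTAAA in 13.2%. The spellings TTCCCGC and TTGGCGC of the E2F site, present in 4.6% and 2.45% of all windows, did not occur in the windows of the members. That says only that these letters are not in these windows.

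The upstream Cdkn1a window holds a pair of CATG separated by 6 bases, from -48 to -35, the core pattern of a known type of p53 response element. Such a pair occurred in 0.712% of all windows. The downstream Cdkn1a window holds GGGCGG from -104 and from -46 and TATAA from -25. GGGCGG occurred in 35.7% of all windows and TATAA in 24.9%. A motif match describes the sequence and does not show that a factor was bound in these livers.

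Levels below are RMA values on the log2 scale as deposited, and a difference is the PN level minus the saline level. Levels of different genes are not compared as amounts of RNA, since each probe set has its own brightness. The median higher level of 133 olfactory, vomeronasal, taste and trace amine receptor genes in the table, 3.26, marks the brightness of genes that liver is not known to use, and is called the background level here. A fold that involves a level under 3.26 is given as at least its size against 3.26, a bound only relative to that choice. Where the 75th percentile of the same receptor genes, 3.93, taken as the floor instead changes the fold of a member or a histone row, that value is given beside it. All 133 had passed the authors' 1.5-fold cutoff, with a median absolute difference of 0.71, and receptor genes that did not pass it have no value. A count of them that differed by at least as much as a member is thus no rate of noise. Of these receptor genes 91, or 68.4%, were lower in the PN pool. That direction is shared by 5 of the 6 members, and its part in their values was not tested. Among the 239 rows with 1 symbol whose higher level lay in the range of Bub1b, H1f5 and H4c8, from 4.47 to 5.02, 45.6% were lower.

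**Figure D1:**
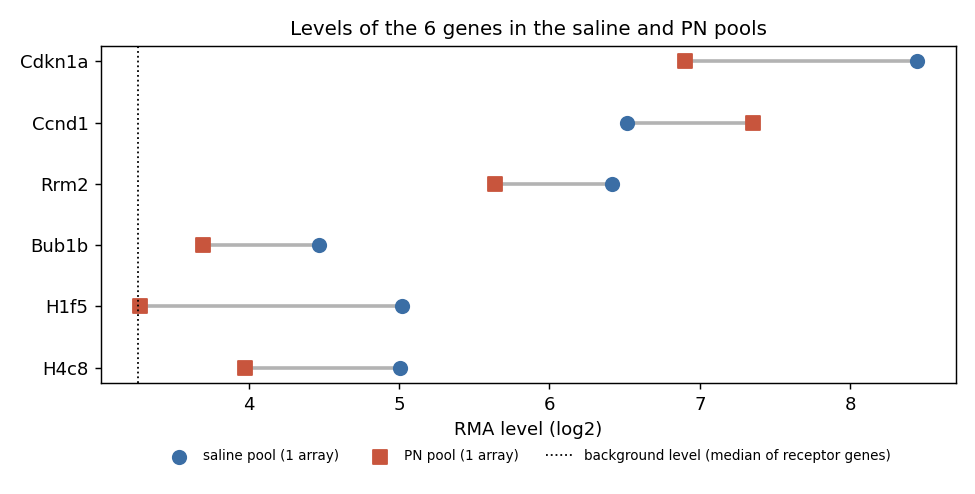
Level of each of the 6 genes (RMA, log2, x axis) in the saline pool (circle) and the PN pool (square), 1 array each, with no error bars because each group is 1 array; the dotted line is the background level of 3.26. The PN level lies to the left of the saline level for every gene but Ccnd1, and the PN level of H1f5, 3.28, lies at the line.

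Cdkn1a encodes p21, an inhibitor of cyclin-dependent kinases that p53 induces and that also responds to stress and hormones. Its level was 8.44 with saline and 6.90 with PN. The PN level was thus lower by 1.54 on the log2 scale, a 2.91-fold difference (n = 1 array per group). This was the 51st largest difference, in either direction, of the 1779 rows with 1 symbol, and none of the receptor genes differed by as much. Both levels lay well above background, by 5.18 and 3.64.

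Cdkn2b, which encodes the inhibitor p15 of the cyclin D-dependent kinases, was also lower in the PN pool. Its levels were 6.71 with saline and 5.59 with PN, a 2.18-fold difference. The other 6 listed genes with a Cdkn symbol (Cdkn1b, Cdkn1c, Cdkn2a, Cdkn2c, Cdkn2d and Cdkn3) have no named value in the table.

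Ccnd1 encodes cyclin D1, the cyclin through which growth signals reach the kinases CDK4 and CDK6, and was the only member higher in the PN pool. Its level was 6.52 with saline and 7.35 with PN, which differ by 0.83 or 1.78-fold. It ranked 540 by size among the rows with 1 symbol, and 26 of the 133 receptor genes differed by at least as much. Myc, a transcription factor that promotes growth, was higher as well, at 5.68 and 6.91, or 2.34-fold. The list of 50 cyclins, kinases, inhibitors and E2F or RB family genes also holds other regulators such as Myc. Of the 50, 4 had a value, 2 higher (Ccnd1 and Myc) and 2 lower (Cdkn1a and Cdkn2b). All 4 were at or above the median brightness of named rows, 5.20. No cyclin other than Ccnd1 and no cyclin-dependent kinase on the list had a named value.

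Rrm2, the ribonucleotide reductase subunit whose amount follows S phase, had a level of 6.42 with saline and 5.64 with PN. The difference was -0.78, or 1.71-fold lower. Of the receptor genes 46 differed by at least as much in either direction. Among the 55 listed genes of DNA replication and nucleotide supply, 5 had a value: 3 lower and 2 higher, with a median of -0.66. Gins2, a subunit of the replicative helicase complex, was 1.60-fold lower, at 5.72 and 5.04. Gmnn, which encodes the licensing inhibitor geminin, was 1.59-fold lower, at 6.28 and 5.62. The direction was opposite for Prim1, the catalytic primase subunit, which was 2.03-fold higher, at 4.10 and 5.12, and for Mcm3, a subunit of the MCM helicase, 1.55-fold higher, at 4.69 and 5.32. Genes of DNA replication thus lay on both sides. A row shared by Top2a, a topoisomerase of dividing cells, and Taf1d had 7.66 and 7.01, or 1.58-fold lower. It names 2 genes and was not counted.

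Bub1b, the checkpoint kinase gene, had a level of 4.47 with saline and 3.70 with PN. The difference was -0.77, or 1.71-fold lower, and 49 receptor genes differed by at least as much. Its PN level lay 0.44 above the background level, so the difference rests on dim signal, and with the floor at 3.93 it was 1.46-fold, under the authors' cutoff. Bub1b was the only one of 50 listed genes of the spindle checkpoint and mitosis with a value, and the other 49, among them Plk1, Aurkb, Cdc20 and Cenpe, had none. The list therefore gives no count beyond Bub1b itself. Over the 3 cell cycle lists together, 10 of 155 genes had a value, 6 lower and 4 higher. Without the members, 3 were lower and 3 higher.

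**Figure D2:**
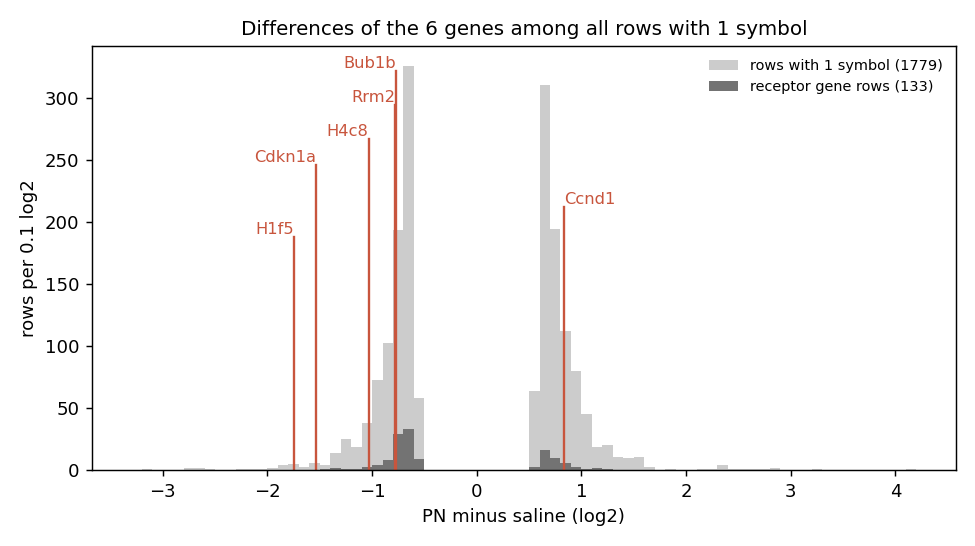
Histogram of PN minus saline (log2, x axis; rows per 0.1 on the y axis) for the 1779 rows with 1 symbol (light grey) and the 133 receptor gene rows (dark grey), with the 6 genes as vertical lines whose heights carry no value. The gap around 0 is the authors' 1.5-fold cutoff; Cdkn1a at -1.54 and H1f5, at -1.74 as deposited and -1.09 with the floor at 3.93, lie to the left, whereas Bub1b, Rrm2 and Ccnd1 lie where many rows do.

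H1f5 encodes the linker histone H1.5, which binds DNA between nucleosomes. Its level was 5.02 with saline and 3.28 with PN, lower by 1.74 on the log2 scale, a 3.35-fold difference. The PN level lay only 0.013 above the background level, so the fold depends on where that level is set. With the floor at 3.93 the difference was -1.09, or 2.13-fold, smaller than that of Cdkn1a, which this floor does not touch. H4c8 encodes the core histone H4 and had a level of 5.01 with saline and 3.98 with PN. The difference was -1.03, or 2.05-fold lower, and 10 receptor genes differed by at least as much. The PN level of H4c8 lay 0.71 above the background level and just above the floor of 3.93, so this difference also rests on dim signal.

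Histone genes of the replication-dependent clusters are near-identical within a family, so most of their probe sets cannot be assigned to 1 gene. Of the 67 protein-coding genes of these clusters in the RefSeq gene table, 4 had a row of their own and 40 were named by at least 1 row, alone or shared. The 10 rows that name them comprise 7 lower and 3 higher in the PN pool. Without the 1-symbol rows of H1f5 and H4c8 these are 5 lower and 3 higher. Without those of H4f16 too, which oppose each other, they are 4 lower and 2 higher. A row shared by 13 H4 genes, which names H4c8 and H4f16, stays among the lower rows in these counts. The 2 higher rows left lay under the floor of 3.93 in both pools. Of the 8 rows with a higher level at or above 3.93, 7 were lower and 1, of H4f16, was higher. The 7 include the rows of H1f5 and H4c8, which were chosen with their differences known. The floor of 3.93 was added after the data were seen, and the share of all rows at that level was not computed. No direction of the family is therefore read from this count. Shared rows overlap in the genes they name and can share target sequence, so they are not independent measurements.

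Among the shared rows, a row of H2B genes (H2bc8, H2bc6 and H2bc4) had a level of 5.84 with saline and 3.18 with PN. The PN level lay under the background level, which makes it at least 5.95-fold lower, or 3.76-fold with the floor at 3.93. A row shared by 8 H3 genes, among them H3c2 and H3c15, had 5.48 and 4.61, or 1.83-fold lower. A row shared by 10 H2A genes, among them H2ac4 and H2ac8, had 5.25 and 4.48, or 1.70-fold lower. A row shared by 13 H4 genes, H4c8 among them, had 4.29 and 3.55, or 1.67-fold lower, and 1.29-fold with the floor at 3.93. By family, H2A and H3 had 1 row each, both lower, H2B had 1 lower and 2 higher rows, and H4 had 3 lower and 1 higher. The 2 higher H2B rows lay under the floor of 3.93 in both pools. The only H1 row was that of H1f5.

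Dim signal and opposed rows affected both directions. H4f16, an H4 gene outside the large clusters, had 2 rows of its own in opposite directions, at 5.28 and 4.64 (1.56-fold lower) and at 3.73 and 4.34 (1.52-fold higher, 1.33-fold with the floor at 3.93), and no direction is given for it. H2bc12 had 3.05 and 3.79. Its saline level lay under the background level, so it was at least 1.45-fold higher, and with the floor at 3.93 both levels lay under it and no fold or direction holds. A row shared by 4 other H2B genes (H2bc15, H2bc13, H2bc11 and H2bc7) had 2.45 and 3.13, both under the background level, so no fold is given.

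**Figure D3:**
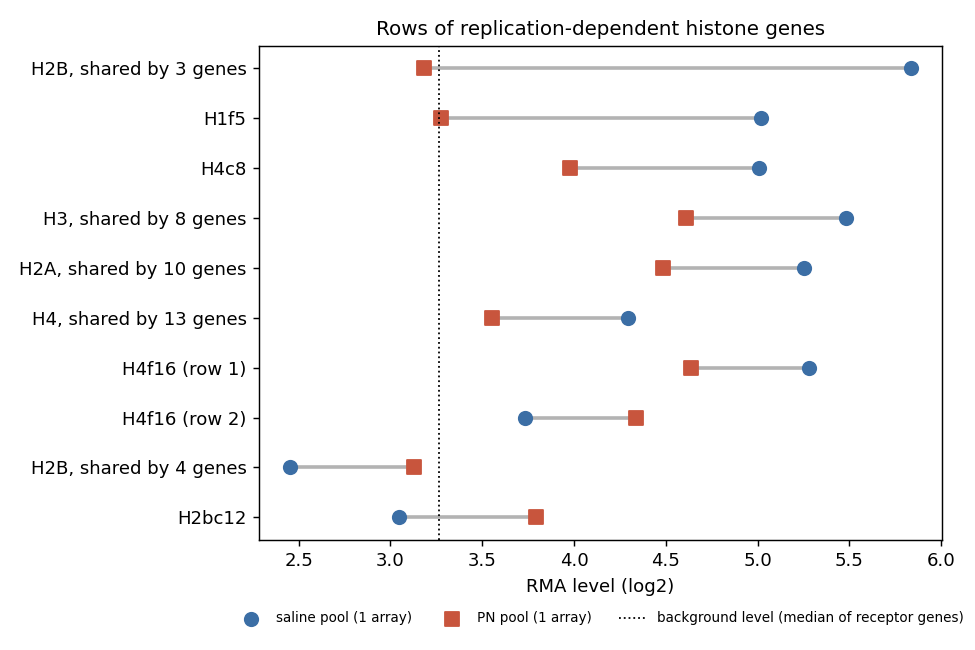
Levels (RMA, log2, x axis) of the 10 rows that name replication-dependent histone genes in the saline pool (circle) and the PN pool (square), 1 array each and no error bars, ordered from the lowest to the highest difference, with the background level of 3.26 dotted. The upper 7 rows, which include H1f5 and H4c8, are lower in the PN pool; the lower 3 are higher, and the H2B row shared by 4 genes lies wholly under the background level.

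Genes of histone mRNA control and histone supply, and histone genes expressed outside S phase, gave almost no values. None of 19 listed genes of histone mRNA processing and histone supply, such as Slbp and Npat, had a named value. Of 15 listed histone genes that are expressed outside replication, Macroh2a2 alone had one, at 3.57 and 2.98. Its PN level lay under the background level, so it was at least 1.24-fold lower, and with the floor at 3.93 no fold or direction holds. In gene order 54 of the 67 cluster genes lie on chromosome 13 with H1f5 and H4c8. None of the 8 genes to either side of H1f5, H4c8, Ccnd1 or Bub1b had a row of its own. Near Cdkn1a, Srsf3, which encodes a splicing factor, was 2.29-fold higher, at 5.99 and 7.19, and Cpne5 was 1.61-fold lower, at 4.46 and 3.77. On the same chromosome, 8 genes from Rrm2, Id2, an inhibitor of differentiation factors, was 2.02-fold lower, at 8.56 and 7.54.

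Most other p53 targets with a value had the direction opposite to Cdkn1a. Of 34 listed genes 7 had a value, 5 higher and 2 lower, and the median was 1.13. Btg2, an antiproliferative gene, was 4.64-fold higher, at 5.49 and 7.71. Plk3, a stress-responsive kinase gene, was 2.45-fold higher, at 7.73 and 9.02. Trp53inp1, a p53-induced nuclear protein gene, was 2.38-fold higher, at 8.00 and 9.25. Ddit4, an inhibitor of mTORC1, was 2.19-fold higher, at 6.14 and 7.27, and Apaf1, of the apoptosome, 1.71-fold higher, at 4.91 and 5.69. Plk2 was lower beside Cdkn1a, by 1.52-fold, at 5.98 and 5.38. Several of these genes also respond to signals other than p53.

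Genes of growth factor and mitogen signalling in liver lay on both sides. Of 46 listed genes 9 had a value, 5 higher and 4 lower, with a median of 0.65. The 5 higher genes were Irs2, an insulin receptor substrate, at 7.06 and 8.11 (2.08-fold), Inhba, an activin subunit, at 5.05 and 5.87 (1.77-fold), Tgfb1 at 5.70 and 6.51 (1.76-fold), Fst, the activin antagonist follistatin, at 5.61 and 6.41 (1.74-fold), and Lgr5, a receptor that enhances Wnt signals, at 5.17 and 5.82 (1.57-fold). Inhbe, a hepatocyte activin subunit, was 2.23-fold lower, at 5.79 and 4.63. The ERBB family receptor genes Erbb2, at 5.62 and 4.80, and Erbb3, at 8.05 and 7.47, were 1.77-fold and 1.50-fold lower. Il6 lay under the background level in both pools, at 2.94 and 2.31, so no fold is given.

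**Figure D4:**
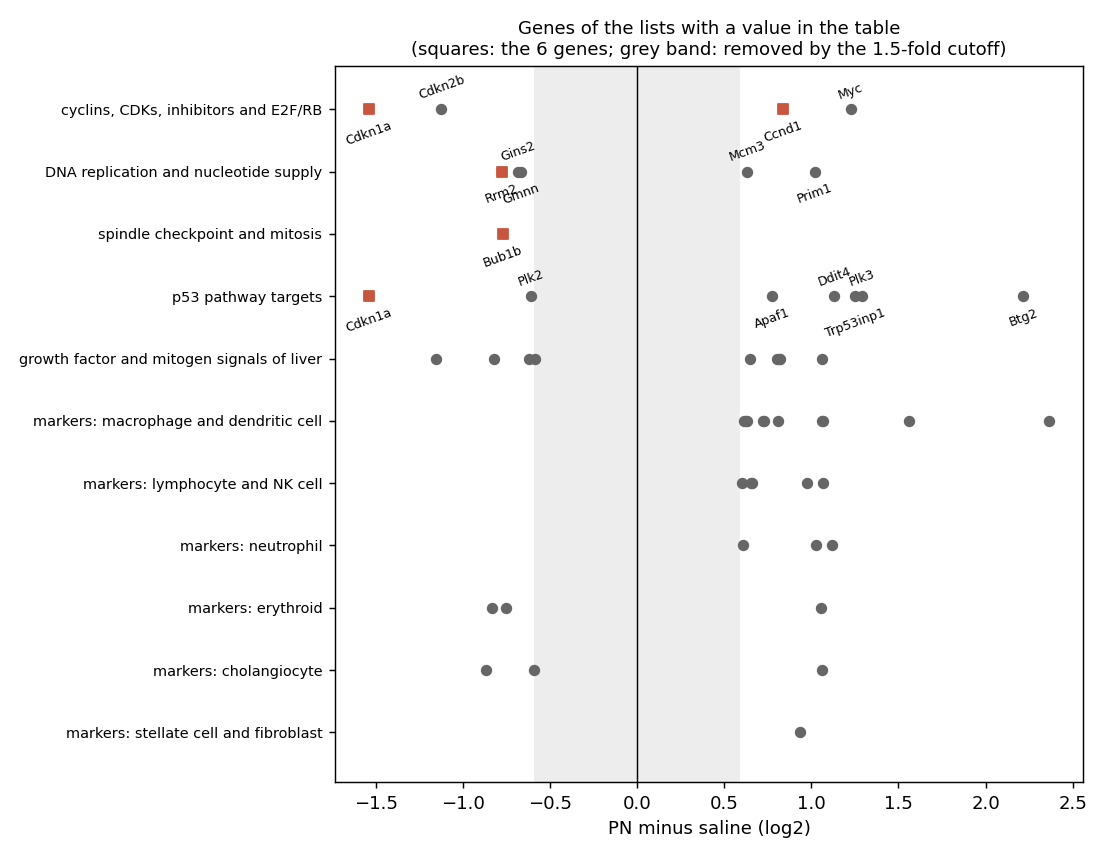
PN minus saline (log2, x axis) of the genes with a value in each list (y axis), 1 point per gene and 1 array per group; squares are members and the grey band is the range that the 1.5-fold cutoff removed. The 3 cell cycle lists hold points on both sides of 0 apart from the spindle list, which holds Bub1b alone, whereas the macrophage, lymphocyte and neutrophil markers lie on the higher side.

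In bulk liver RNA, fewer cells of a type and less RNA per cell cannot be told apart, and dividing cells in a liver sample can be hepatocytes, immune cells or residual blood-forming cells. None of 16 hepatocyte markers had a named value in the table, so the tissue label cannot be checked on them. The hepatocyte enzyme gene Cyp7a1 had 8.77 and 10.0, and Cyp8b1 had 9.60 and 7.77, far above background in both pools. Of 20 macrophage and dendritic cell markers 10 had a value, each of them higher with PN, with differences from 0.62 to 2.36 and a median level of 6.97 with saline and 7.81 with PN. The 5 of 18 lymphocyte and NK cell markers and the 3 of 12 neutrophil markers with a value were higher too, with medians of 0.66 and 1.03. Of the 5 lymphocyte and NK cell genes, 2 were at or above the median brightness of named rows. Cd3e and Klrb1c had saline levels of 3.91 and 3.61, and with the floor at 3.93 they were 1.94-fold and 1.22-fold higher. Of 15 erythroid markers, Car1 was 1.78-fold and Klf1 1.68-fold lower, whereas Tfrc was 2.08-fold higher. Counting rows of several symbols as well gave 3 lower and 1 higher erythroid rows. Of 10 cholangiocyte markers, Epcam was 1.82-fold lower, or 1.46-fold with the floor at 3.93, and Tspan8 was 1.51-fold lower. Prom1 was at least 2.01-fold higher, or 1.27-fold with that floor. Of 12 stellate cell and fibroblast markers Lum alone had a value, 1.91-fold higher, and none of 12 endothelial markers had one. The part of any of these cell types in the values of the 6 genes was not tested.

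The named protein-coding gene with the brightness in both pools most like each member's was found by the straight-line distance between the 2 pairs. The closest genes were Mup21 to Cdkn1a (distance 0.10), Actg1 to Ccnd1 (0.023), Col6a1 to Rrm2 (0.028), Prpmp5 to Bub1b (0.031), Ube2u to H4c8 (0.092) and Khdc1c to H1f5 (0.31). With 2 arrays such likeness means only a like brightness and a like difference.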

How the data were processed

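RNA of liver from 2 pools was measured on 1 array each, grouped by the mouse group in the labels. The deposited values are on the log2 scale and were made by the authors with RMA (which corrects background, normalizes arrays to each other and summarises probes) in Affymetrix Expression Console 1.4.0.38, per the submitters' processing notes. No genome build of the probe sets, and no list of the arrays normalized jointly, is given in the sources used here. Rows under a 1.5-fold difference had been removed, per the series' design text. The smallest absolute difference in the table was 0.585.

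By the platform annotation, 1779 of 5082 rows name 1 gene, 161 name several and 3142 name none. Rows of 1 symbol were averaged per gene for the gene and marker lists, the neighbours and the closest genes. Shares, ranks, receptor counts, histone row counts and the alternatives used rows as deposited, without averaging. A fold is 2 to the power of the absolute difference, with no pseudocount. Folds that involve a level under background use the background level in its place and are given as "at least". The array number limits the precision, and no p-value or error exists for any difference. Computations used Python 3.11.15 and pandas 2.3.3, and the scripts were tested on simulated data. The members, the 8 gene lists, the 8 marker lists and the alternatives were chosen with earlier results of these data known, and the motifs after the promoter windows were seen. Genes are named if they are members, if they are on a pathway list and have a value, if they are closest to a member in both levels, or, beside these, as neighbours, cell type markers and tissue genes chosen after their values were seen. The gene table and promoter windows are RefSeq's for GRCm38.p6.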

Additional observations from a re-analysis of the deposited data

How the results depend on the processing

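The 6 differences kept their direction under every alternative that gave a value. Floors, a stricter cutoff and the choice of the brightest row cannot reverse a sign here. Centring and quantile normalization moved values far less than the 1.5-fold cutoff that every row had passed. The kept direction was thus largely fixed in advance and is no sign of robustness. Centring each array on its median shifted every difference by 0.019, and quantile normalization over the rows by at most 0.049. Of 33 alternative values 19 equal the reported one, since those settings do not touch them, and of the other 14 all but 1 stayed within 1.5 times. The exception was H1f5 at -1.09 with levels under the 75th percentile of receptor levels raised to it, an alternative added after seeing the data, in which the raised PN level itself sets the value. A 2-fold cutoff leaves no value for Ccnd1, Rrm2 and Bub1b. It left 2 lower and 2 higher rows of the 3 cell cycle lists. For histone rows of 1 symbol, reported as 3 lower and 2 higher, counting shared rows gave 7 lower, the 2-fold cutoff left 0 higher, a level at or above the median left 1 lower and 0 higher, and one at or above the 75th percentile of receptor levels left 1 higher. Of 108 alternative counts of the other lists whose reported count was above 0, 88 stayed within 1.5 times and 20 did not. With 1 array per group no replicate could be left out. No paired analysis was possible because each group is 1 pool. Signal near the background level limits H1f5 and Bub1b most, and then H4c8.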
